A study of Homo sapiens with 6 samples.

Results

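The expression of 10 genes of the Wnt and beta-catenin pathway was read out by RNA sequencing in HT29 cells, an established human colorectal cancer line, after an siRNA against the ubiquitin ligase gene RNF6. The members were CTNNB1, APC, AXIN1, AXIN2, GSK3B, TCF7, TCF7L2, LEF1, LGR5 and NKD1, 10 of the 56638 gene symbols listed in the count tables. They were chosen by symbol, with earlier results of these data known. Of these 10, 8 had enough reads to be among the 14685 genes tested, while LEF1 and LGR5 did not pass the filter on low counts. Cells of the first group received siRNA against RNF6 and are labelled RNF6 knockdown (3 libraries), and those of the second received nonspecific siRNA and are labelled wild type, control (3 libraries). Both groups were the same line at passages 16 to 19, grown with 10% fetal bovine serum, so each value describes a single line. The sources used here do not say how many siRNA sequences were used, how long cells were kept after transfection, or whether replicates were separate cultures. A p-value here sets the group difference against the spread among these libraries, estimated partly across all tested genes. That spread may be technical.

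In the canonical Wnt pathway, a complex built on the scaffolds APC and AXIN holds beta-catenin, the product of CTNNB1, for phosphorylation by casein kinase 1 and GSK3 and then for degradation. Wnt ligands, bound by frizzled and LRP receptors, stop this complex, and beta-catenin then joins the DNA-binding factors of the TCF and LEF family on target genes. AXIN2, LGR5 and NKD1 are targets of that output in the intestine, and AXIN2 and NKD1 feed back on the pathway. The HT29 line is known to carry truncating mutations of APC, as most colorectal cancers do, and such mutations activate the pathway without a ligand. The APC sequence in these libraries was not analysed here. RNF6 has been reported to act on TLE3, a corepressor of TCF factors, in colorectal cancer cells.

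Gene reads summed to between 6808771 and 11071456 per library. RNF6, on chromosome 13, stood at 16.5, 16.2 and 16.9 CPM (counts scaled to each library's reads in tested genes and TMM factor) in RNF6 siRNA replicates 1, 2 and 3, against 54.3, 45.2 and 57.8 CPM in control replicates 1, 2 and 3. All RNF6 siRNA libraries lay below all control libraries, a 3.17-fold fall (log2 fold change −1.66, SE 0.13, adjusted p = 2.12e-06). Of 11 colon epithelial markers, EPCAM, CDH1, KRT8, KRT18, KRT19 and CDX2 were above 13 CPM in every library. VIL1, LGALS4 and CDH17 did not pass the filter on low counts, CDX1 had 0 reads in all 6 libraries, and KRT20 reached 2.35 CPM at most. Annotated exons of USP37 overlap 44.0% of VIL1. The summed level of the 11 markers was 2445 to 2829 CPM in RNF6 siRNA libraries and 4352 to 5652 CPM in control libraries. KRT8 was the largest part in each. Of 7 tested markers, 4 fell at an adjusted p below 0.05, beside 16.1% of all tested genes. These were the keratin genes KRT8, KRT18, KRT19 and KRT20, while EPCAM, CDH1 and CDX2 did not pass. Low levels of several colon epithelial markers stand beside the label HT29, and the identity of the line was not tested here. The summed level of 6 immune markers was at most 1.75 CPM in RNF6 siRNA and 3.09 CPM in control libraries, that of 5 endothelial markers at most 2.36 CPM in RNF6 siRNA and 2.91 CPM in control libraries. The immune marker CD68 had 0 reads in all 6 libraries. Annotated exons of other genes overlap 85.8% of it, so CD68 can have lost reads. Of 8 fibroblast markers, COL1A1 carried 68.0 to 82.9 CPM in RNF6 siRNA and 49.3 to 63.5 CPM in control libraries, and none of the other 7 exceeded 1.7 CPM. The part of these marker shifts in the results was not tested. In bulk RNA, fewer cells of a type and less RNA per cell cannot be told apart.

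Among the 8 tested members, TCF7L2, TCF7 and AXIN1 rose after RNF6 siRNA, 0 fell, and 5 did not pass the test. A member was called at an adjusted p below 0.05 in edgeR's quasi-likelihood test, adjusted over all genes tested. The count of lower members was also 0 at an unadjusted p below 0.05 and in DESeq2. The same threshold called 16.6% of all tested genes higher and 16.1% lower, together 32.7%, so calls were frequent in the whole transcriptome. The 3 higher calls are 37.5% of only 8 genes. The median log2 fold change of the 8 was 0.22, against 0.01 over all tested genes. RNF6 siRNA and control libraries were fully apart for 5 of the 8, compared with 44.2% of all tested genes. These 5 were CTNNB1, AXIN1, AXIN2, TCF7 and TCF7L2, all higher in RNF6 siRNA libraries.

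**Figure D1:**
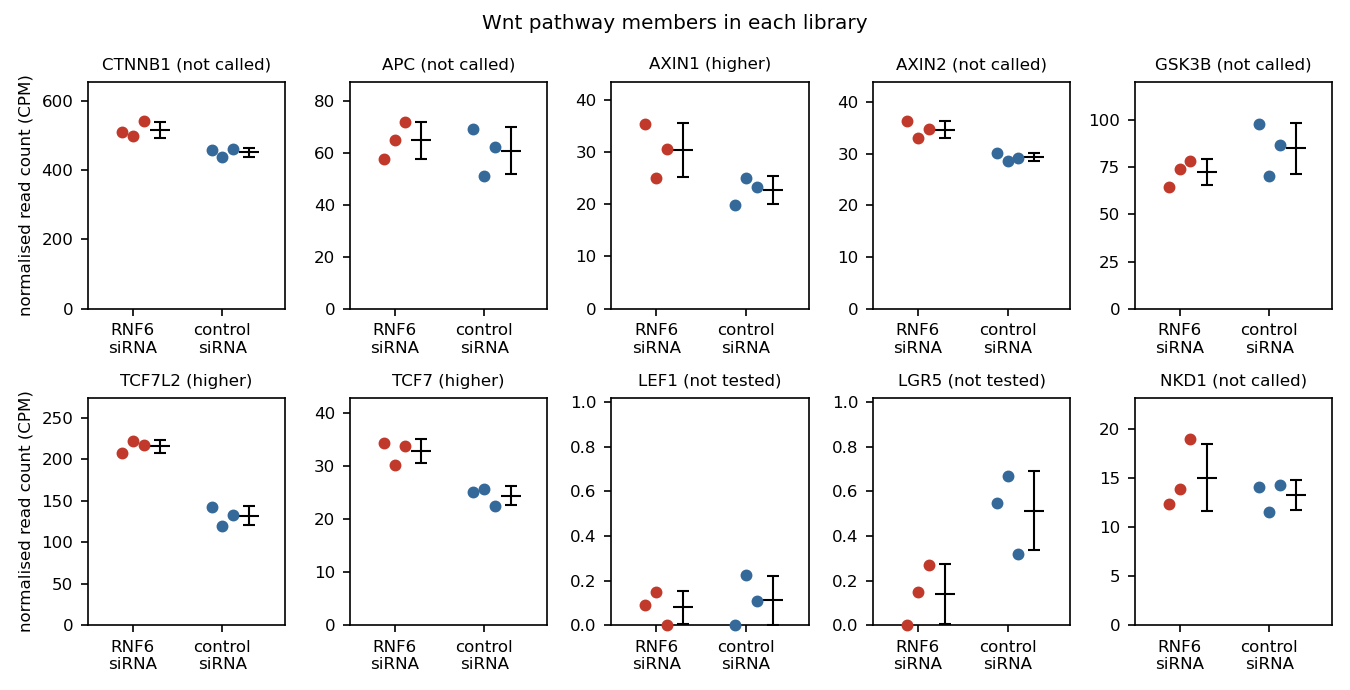
Normalised read count (CPM, linear axis from 0) of each of the 10 members in the 3 RNF6 siRNA libraries (red, left) and the 3 control libraries (blue, right). Each point is a library, the bar beside it is mean ± SD (n = 3), and each panel title gives the call. TCF7L2 separated most widely, at 207 to 222 CPM in RNF6 siRNA and 119.6 to 143 CPM in control libraries, while LEF1 and LGR5 stayed under 1 CPM.

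TCF7L2, on chromosome 10, encodes the TCF factor best known from the colon epithelium and had the largest difference among the members. It stood at 207, 222 and 217 CPM in RNF6 siRNA replicates 1, 2 and 3, against 143, 119.6 and 133 CPM in control replicates 1, 2 and 3. The lowest RNF6 siRNA library lay well above the highest control library. The mean was 215 ± 7.61 CPM in RNF6 siRNA and 132 ± 11.6 CPM in control libraries (SD, n = 3 each), a 1.63-fold rise (log2 fold change 0.71, SE 0.10, adjusted p = 1.72e-04). This call held in each of 11 alternative settings, with adjusted p-values from 4.47e-09 to 0.00643.

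TCF7, on chromosome 5, encodes the related factor TCF1, which is itself a Wnt target in the intestine and has short forms that lack the beta-catenin binding end. Its level was 34.4, 30.3 and 33.9 CPM in RNF6 siRNA replicates 1, 2 and 3, and 25.2, 25.7 and 22.4 CPM in control replicates 1, 2 and 3. The groups did not overlap, and the rise was 1.35-fold (log2 fold change 0.43, SE 0.12, adjusted p = 0.0133). TCF7 no longer passed when RNF6 siRNA replicate 3 (adjusted p = 0.0679) or control replicate 3 (0.0989) was left out, and its adjusted p lay between 0.00831 and 0.0989 in the alternatives. Gene counts do not separate long from short forms of TCF7 or TCF7L2.

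LEF1, on chromosome 4, the third family member of the list, was close to absent from the libraries. It had 1, 1 and 0 reads in RNF6 siRNA replicates 1, 2 and 3, and 0, 2 and 1 reads in control replicates 1, 2 and 3. These counts, 2 of 28931779 gene reads and 3 of 25637315, were at or under a floor of 3 reads per group, so no fold is given. The antisense transcript LEF1-AS1 had 0 reads in all 6 libraries.

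The family was set side by side on a scale that allows it, CPM per kilobase of annotated exon, with the non-member TCF7L1 added. TCF7L1 encodes a TCF factor that often acts as a repressor. It rose 2.02-fold, with 35.0, 27.5 and 35.9 CPM in RNF6 siRNA replicates 1, 2 and 3, against 13.8, 17.9 and 17.2 CPM in control replicates 1, 2 and 3 (adjusted p = 2.21e-04). The summed level of TCF7, TCF7L1, TCF7L2 and LEF1 was 42.7 ± 0.931 CPM per kilobase in RNF6 siRNA and 25.7 ± 1.21 CPM per kilobase in control libraries (SD, n = 3 each). TCF7L2 made up 74.9 ± 2.74% of that sum in RNF6 siRNA and 76.0 ± 3.16% in control libraries, a difference smaller than the SD in either group. The share of TCF7 was 7.65 ± 0.497% in RNF6 siRNA and 9.47 ± 0.941% in control libraries, and that of TCF7L1 was 17.4 ± 2.30% in RNF6 siRNA and 14.4 ± 2.55% in control libraries. LEF1 held at most 0.0653% of the sum in RNF6 siRNA libraries and 0.171% in control libraries. The family total was thus higher in every RNF6 siRNA library, with TCF7L2 as the main factor in both groups.

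**Figure D2:**
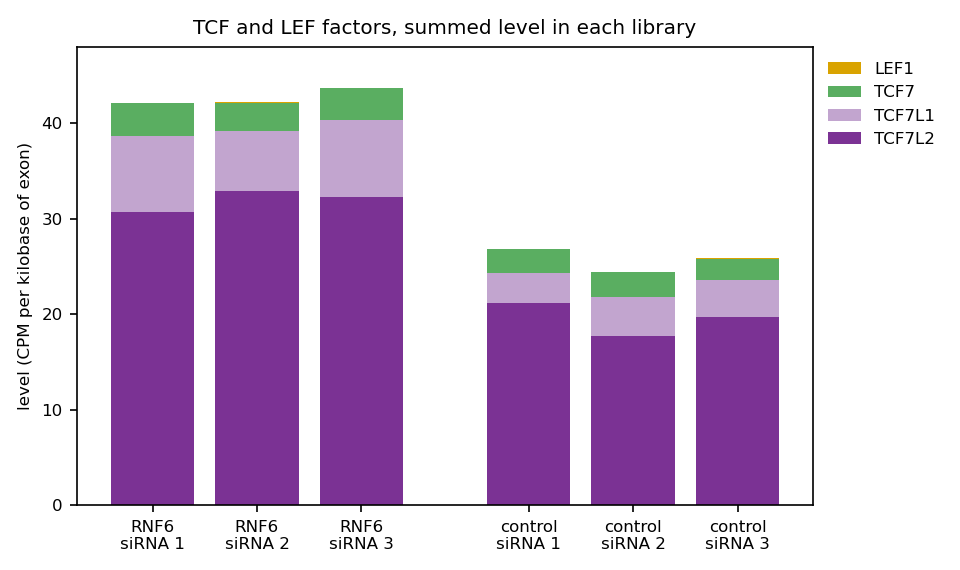
Summed level of the TCF and LEF factors (CPM per kilobase of exon, linear axis from 0) in RNF6 siRNA replicates 1 to 3 (left) and control replicates 1 to 3 (right), stacked by factor. The sums average 42.7 in RNF6 siRNA and 25.7 in control libraries, TCF7L2 is the tallest segment in each bar, and LEF1 is hardly visible.

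TCF and LEF factors bind a short core, and the promoter windows of the members were searched for it because TCF7 is a known target of its own family. The words were CTTTGAA, the related form CTTTGAT, another form CTTTGTA and the form CTTTGTT, on both strands, in windows of 300 bases from RefSeq (GRCh38.p14, 250 bases before to 50 after each start). Of the members, 7 matched the table, with 11 windows, and 2 windows held 1 match each, compared with 13.8% of all 35116 windows. The called members TCF7L2, TCF7 and AXIN1 held most of the 11 windows, and AXIN2, LGR5 and NKD1 had none, so a link between match and call was not tested. Both matches lie at a second annotated start, of TCF7L2 and of TCF7, and are printed on the gene's strand with the matched word in capitals.
TCF7L2, chr10:113126489-113126517, plus strand: aaaatatcaggCTTTGTTcttttgattga
TCF7, chr5:134123557-134123585, plus strand: ggccccactggAACAAAGgaggagagagg
The word begins 133 bases before that start of TCF7L2, and 50 bases before that of TCF7, where it is the reverse complement of CTTTGTT. A match describes the letters in the window, and binding was not measured.

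CTNNB1, on chromosome 3, encodes beta-catenin itself. It stood at 509.6, 499 and 542 CPM in RNF6 siRNA replicates 1, 2 and 3, against 457, 437 and 459.8 CPM in control replicates 1, 2 and 3. The groups did not overlap, yet the 1.15-fold difference did not pass the test (log2 fold change 0.20, 95% interval 0.003 to 0.39, adjusted p = 0.110). Levels of the protein, on which the pathway turns, were not measured.

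The scaffolds and the kinase of the destruction complex differed less clearly. AXIN1, on chromosome 16, is the scaffold present in most cells. It had 35.4, 25.1 and 30.6 CPM in RNF6 siRNA replicates 1, 2 and 3, and 19.8, 25.1 and 23.3 CPM in control replicates 1, 2 and 3. The lowest RNF6 siRNA library and the highest control library met at 25.1 CPM, and only the digits beyond those shown keep them apart. The mean was 30.4 ± 5.16 CPM in RNF6 siRNA and 22.7 ± 2.67 CPM in control libraries (SD, n = 3 each), a 1.34-fold rise (log2 fold change 0.42, SE 0.15, adjusted p = 0.0392). AXIN1 no longer passed when RNF6 siRNA replicate 1 (adjusted p = 0.157) or 3 (0.116) or control replicate 1 (0.0624) or 3 (0.114) was left out, or in DESeq2 (0.0666). Its adjusted p lay between 0.0189 and 0.157 in the alternatives.

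AXIN2, on chromosome 17, is both a scaffold and a widely used readout of beta-catenin output. It had 36.2, 33.1 and 34.7 CPM in RNF6 siRNA replicates 1, 2 and 3, against 30.1, 28.5 and 29.2 CPM in control replicates 1, 2 and 3. Every RNF6 siRNA library lay above every control library, but the 1.19-fold difference did not pass (log2 fold change 0.25, 95% interval 0.01 to 0.48, adjusted p = 0.0977). Annotated exons of another gene on the same strand overlap 25.2% of AXIN2. Reads that fit several genes were set aside as ambiguous, so AXIN2 can have lost reads if the annotation used held that gene, which is not known here.

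APC, on chromosome 5, encodes the large scaffold of the complex. Its transcript was at 57.7, 64.8 and 71.7 CPM in RNF6 siRNA replicates 1, 2 and 3, and at 68.9, 51.1 and 62.3 CPM in control replicates 1, 2 and 3. The groups overlapped (log2 fold change 0.09, 95% interval −0.19 to 0.37, adjusted p = 0.619), and without control replicate 2 the sign turned (log2 fold change −0.023). GSK3B, on chromosome 3, the kinase that marks beta-catenin for degradation, was the one tested member with a lower mean after RNF6 siRNA. It had 64.8, 74.2 and 78.5 CPM in RNF6 siRNA replicates 1, 2 and 3, and 98.0, 70.7 and 86.9 CPM in control replicates 1, 2 and 3. The groups overlapped (log2 fold change −0.23, 95% interval −0.51 to 0.05, adjusted p = 0.189), and GSK3B passed only without control replicate 2 (log2 fold change −0.35, adjusted p = 0.0333).

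Within each group some members varied together across libraries. In RNF6 siRNA replicate 1, APC, GSK3B, TCF7L2 and NKD1 were at their lowest for that group, and AXIN1 and TCF7 were at their highest. Control replicate 2 had the same arrangement of these members among control libraries. AXIN2 went the other way, highest in RNF6 siRNA replicate 1 (36.2 CPM) and lowest in control replicate 2 (28.5 CPM). CTNNB1 was at its lowest in control replicate 2 but not in RNF6 siRNA replicate 1. Over all tested genes, deviations from the group mean correlated at 0.55 between RNF6 siRNA replicate 1 and control replicate 2. Shared deviation of these libraries was thus not particular to the members. The share of reads outside annotated genes was 7.26% in RNF6 siRNA replicate 1, against 8.60% and 9.23% in replicates 2 and 3, and 5.90% in control replicate 2, against 9.04% and 7.07% in control replicates 1 and 3. Its part in the members' spread was not tested.

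Of the members known as targets of pathway output, TCF7 passed, AXIN2 and NKD1 did not, and LGR5 was too low to test. NKD1, on chromosome 16, encodes a Dishevelled-binding feedback inhibitor. It had 12.3, 13.9 and 18.9 CPM in RNF6 siRNA replicates 1, 2 and 3, and 14.0, 11.5 and 14.3 CPM in control replicates 1, 2 and 3. The groups overlapped apart from the high value of RNF6 siRNA replicate 3 (log2 fold change 0.19, 95% interval −0.19 to 0.56, adjusted p = 0.437), and without that library the log2 fold change was −0.031.

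LGR5, on chromosome 12, the R-spondin receptor that marks stem cells of the intestinal crypt, was barely detected. It had 0, 1 and 3 reads in RNF6 siRNA replicates 1, 2 and 3, against 4, 6 and 3 reads in control replicates 1, 2 and 3. Pooled over libraries this was 4 reads, or 0.138 CPM (95% exact Poisson interval 0.0377 to 0.354), in RNF6 siRNA and 13 reads, or 0.507 CPM (0.270 to 0.867), in control libraries. The ratio of these unscaled rates was 0.273 (95% interval 0.0648 to 0.883), an interval that covers counting error only. When the filter on low counts was dropped, LGR5 had an unadjusted p of 0.0341 and an adjusted p of 0.159 in edgeR. In DESeq2 its log2 fold change was −1.90 (SE 1.23) at an unadjusted p of 0.123. The CPM of the groups did not overlap, but replicate 3 had 3 reads in both groups, and LGR5 was not called.

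**Figure D3:**
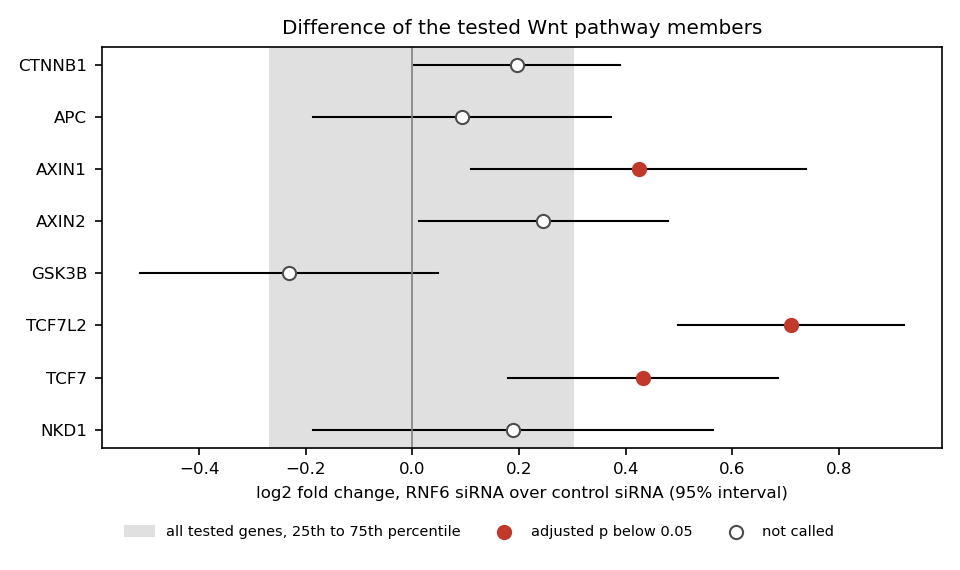
Log2 fold change (RNF6 siRNA over control siRNA) of the 8 tested members with its 95% interval from the edgeR fit, filled where the adjusted p is below 0.05. The grey band spans the 25th to 75th percentile of all tested genes, −0.27 to 0.30, and the filled points of AXIN1, TCF7 and TCF7L2 lie to its right.

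Levels were ordered per kilobase of exon, since longer transcripts give more reads. CTNNB1 led with 43.3 ± 1.87 CPM per kilobase in RNF6 siRNA and 37.8 ± 1.06 CPM per kilobase in control libraries (SD, n = 3 each). TCF7L2 followed with 32.0 ± 1.13 in RNF6 siRNA and 19.6 ± 1.72 CPM per kilobase in control libraries. GSK3B, AXIN2, APC, AXIN1 and TCF7 came next in both groups, between 8.89 and 3.26 in RNF6 siRNA and between 10.4 and 2.43 CPM per kilobase in control libraries, then NKD1 with 0.863 ± 0.198 in RNF6 siRNA and 0.762 ± 0.0876 in control libraries, and LGR5 and LEF1 with means under 0.1 CPM per kilobase. The order of the means was the same in both groups. Libraries of neighbours overlapped for APC and AXIN1, AXIN1 and TCF7, and LGR5 and LEF1 in RNF6 siRNA, and for AXIN2 and APC in control libraries. Per kilobase of coding sequence CTNNB1, TCF7L2 and GSK3B stayed in front, with means of 214, 96.9 and 50.04 CPM per kilobase in RNF6 siRNA and 187, 59.3 and 58.8 CPM per kilobase in control libraries. On that scale TCF7L2 and GSK3B overlapped in control libraries, at 53.8 to 64.3 and 48.8 to 67.6 CPM per kilobase. TCF7 came next by that measure, and APC last of the tested members.

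The rest of the pathway was taken from 9 lists of 144 genes by role, of which 110 were tested, 24 rose and 20 fell. These are 21.8% and 18.2% of those tested, beside the 16.6% and 16.1% of all tested genes. The lists were chosen with earlier results of these data known, so setting these shares side by side tests nothing. Without RNF6 siRNA replicate 3, 13 rose and 11 fell, and without control replicate 3, 14 rose and 13 fell. Calls over all tested genes dropped as well, from 2442 higher and 2364 lower. They were 1529 and 1478 without RNF6 siRNA replicate 3, and 1514 and 1595 without control replicate 3. The counts per list given below for these settings are to be read beside that drop. Called genes lay in both directions in each list except the nuclear co-factors, and the lists are described by counts and medians without a test of the list.

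Among 15 tested genes of Wnt ligands and secretion, 3 rose and 1 fell (median log2 fold change 0.02). WNT16 had 159.5 ± 13.9 CPM in RNF6 siRNA and 99.3 ± 9.32 CPM in control libraries, a 1.61-fold rise (adjusted p = 4.36e-04). WNT3A, a classical activator of beta-catenin signalling, rose 2.08-fold, to 8.45 ± 2.03 CPM in RNF6 siRNA, against 4.13 ± 0.790 CPM in control libraries, and WNT8B rose 2.34-fold, to 4.21 ± 0.446 CPM in RNF6 siRNA, against 1.83 ± 0.821 CPM in control libraries. PORCN, the enzyme that attaches the lipid Wnts need for secretion, fell 1.45-fold, to 10.4 ± 1.29 CPM in RNF6 siRNA, against 15.3 ± 2.72 CPM in control libraries (adjusted p = 0.0227). PORCN no longer passed, leaving 0 lower genes in the list, when RNF6 siRNA replicate 2 (adjusted p = 0.0840) or 3 (0.0670) or control replicate 2 (0.0546) or 3 (0.100) was left out (0.00109 to 0.100 in the alternatives).

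Of 14 tested Wnt receptors, 4 rose and 4 fell (median log2 fold change −0.29). PTK7, a kinase-dead co-receptor, rose 1.32-fold, to 314 ± 19.8 CPM in RNF6 siRNA, against 238 ± 17.6 CPM in control libraries (adjusted p = 0.00710). The frizzled gene FZD3 rose 1.48-fold and FZD6 fell 1.45-fold, while LRP5, a co-receptor of frizzled, fell 1.34-fold. FZD3 no longer passed when RNF6 siRNA replicate 3 (adjusted p = 0.0545) or control replicate 3 (0.0519) was left out (1.43e-04 to 0.0565 in the alternatives). LRP5 did not when RNF6 siRNA replicate 2 (0.0736) or control replicate 3 (0.0781) was left out (0.00204 to 0.0781). With RNF6 siRNA replicate 3 left out the list had 1 higher and 2 lower genes, with control replicate 3 left out 2 and 2, with RNF6 siRNA replicate 2 left out 3 and 2, and with RNF6 siRNA replicate 1 left out 2 and 4.

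In the R-spondin axis, to which LGR5 belongs, 4 genes were tested. RNF43 and ZNRF3 encode sister ubiquitin ligases that remove frizzled receptors from the cell surface, and they moved apart. RNF43 rose 1.54-fold, to 170.1 ± 6.31 CPM in RNF6 siRNA, against 111 ± 5.39 CPM in control libraries (adjusted p = 3.31e-04), although exons of other genes overlap 73.9% of it. ZNRF3 fell 1.29-fold, with 29.8 ± 1.43 CPM in RNF6 siRNA and 38.5 ± 0.998 CPM in control libraries (adjusted p = 0.0180). ZNRF3 no longer passed when RNF6 siRNA replicate 1 (adjusted p = 0.0692) or 3 (0.05003) or control replicate 3 (0.0768) was left out (0.0171 to 0.0921 in the alternatives). Without control replicate 2 the list had 2 lower genes.

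Of 15 secreted or surface inhibitors 5 were tested, and SFRP1 and SFRP2 had 0 reads in all libraries. DKK1, which blocks LRP co-receptors and is itself a beta-catenin target, stood at 208, 211 and 185 CPM in RNF6 siRNA replicates 1, 2 and 3, against 458, 461 and 445 CPM in control replicates 1, 2 and 3. This was a 2.26-fold fall (log2 fold change −1.18, SE 0.09, adjusted p = 3.13e-06). NOTUM, a secreted enzyme that strips the lipid from Wnts and a target in intestinal tumours, rose 1.58-fold (log2 fold change 0.66, adjusted p = 0.00816).

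Among 8 tested genes of Dishevelled and its binders, 3 rose and 1 fell (median log2 fold change −0.11). DIXDC1, whose protein shares a domain with Dishevelled and AXIN, rose 1.60-fold, to 28.2 ± 2.05 CPM in RNF6 siRNA, against 17.7 ± 3.93 CPM in control libraries (adjusted p = 0.00486). The Dishevelled gene DVL2 rose 1.38-fold and CXXC4, a Dishevelled-binding inhibitor, 1.67-fold, while DACT1, another Dishevelled-binding gene, fell 1.54-fold. Leaving out RNF6 siRNA replicate 3 ended the calls of DVL2 (adjusted p = 0.0559), CXXC4 (0.0638) and DACT1 (0.0606), and leaving out control replicate 3 did so for DVL2 (0.0564) and CXXC4 (0.120). Leaving out RNF6 siRNA replicate 2 did so for DACT1 (0.0569) and CXXC4 (0.0712), as did control replicate 2 (0.0557) and DESeq2 (0.114) for CXXC4. The adjusted p of the alternatives lay between 0.00300 and 0.0700 for DVL2, 0.00965 and 0.0606 for DACT1, and 0.00683 and 0.120 for CXXC4. The list had 1 higher and 0 lower genes without RNF6 siRNA replicate 3, 2 and 0 without RNF6 siRNA replicate 2, 1 and 1 without control replicate 3, and 3 and 3 without RNF6 siRNA replicate 1 or control replicate 1.

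All 21 other genes listed for the destruction complex, related kinases and regulators were tested, of which 3 rose and 4 fell (median log2 fold change 0.00). Not all of the listed genes encode parts of the complex. The falls were led by BTRC and FBXW11, which encode the paired F-box proteins that recognise phosphorylated beta-catenin. BTRC stood at 55.5, 58.9 and 58.4 CPM in RNF6 siRNA replicates 1, 2 and 3, against 90.5, 88.4 and 90.8 CPM in control replicates 1, 2 and 3, a 1.56-fold fall (adjusted p = 3.26e-04). FBXW11 stood at 73.4, 82.8 and 77.0 CPM in RNF6 siRNA replicates 1, 2 and 3, against 132, 114 and 119 CPM in control replicates 1, 2 and 3, a 1.57-fold fall (adjusted p = 4.84e-04). For both genes the groups were far apart. GSK3A, the paralog of the member GSK3B, fell 1.39-fold (adjusted p = 0.0100), and was singled out here with its values known. AMER1 rose 1.43-fold (adjusted p = 0.0215) and PPP2CA fell 1.23-fold (adjusted p = 0.0235). Both are named to complete the called genes of the list, and their values in the alternatives are not given. The casein kinase genes CSNK1G1 (1.31-fold) and CSNK1G3 (1.38-fold) rose as well. Neither passed when RNF6 siRNA replicate 3 was left out (adjusted p = 0.0602 for CSNK1G1 and 0.0503 for CSNK1G3), nor did CSNK1G1 when control replicate 3 was (0.0590). In the alternatives the adjusted p lay between 0.00788 and 0.0707 for CSNK1G1 and between 9.47e-04 and 0.0578 for CSNK1G3. Without RNF6 siRNA replicate 3 the list had 0 higher and 2 lower genes, without control replicate 3 it had 1 and 3, and without control replicate 1 it had 7 and 4.

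Nuclear co-factors and repressors of TCF factors rose for 5 of 18 tested genes and fell for 0 in edgeR (median log2 fold change 0.15), against 4 and 0 in DESeq2, where CBY1 did not pass (adjusted p = 0.140). At an unadjusted p below 0.05, 1 gene was lower, the corepressor gene TLE2 (adjusted p = 0.0617). Those that rose were TCF7L1, given above, the short Groucho-related gene AES (now TLE5, 1.96-fold), the beta-catenin inhibitor genes CTNNBIP1 (1.43-fold) and CBY1 (1.38-fold), and PYGO2 (1.35-fold), which encodes a co-activator bound to beta-catenin through BCL9. AES had 86.8, 62.7 and 73.6 CPM in RNF6 siRNA replicates 1, 2 and 3, against 35.5, 44.2 and 34.5 CPM in control replicates 1, 2 and 3 (adjusted p = 2.33e-04). TLE3, the corepressor gene linked to RNF6 above, had 60.4 ± 5.16 CPM in RNF6 siRNA and 68.2 ± 8.59 CPM in control libraries and did not pass (adjusted p = 0.285). CTNNBIP1 no longer passed when control replicate 3 was left out (adjusted p = 0.0523, the highest of the alternatives, which began at 0.00660). PYGO2 did not when RNF6 siRNA replicate 3 (0.0537) or control replicate 3 (0.0600) was left out (0.00669 to 0.0610). CBY1, with exons of another gene over 44.8% of it, failed in 8 of 11 alternatives (adjusted p between 0.0195 and 0.162). Among these were leaving out RNF6 siRNA replicate 1 (0.0769), 2 (0.0961) or 3 (0.0813) and control replicate 1 (0.0903) or 3 (0.162). The list had 3 higher genes without RNF6 siRNA replicate 3 and 2 without control replicate 3, and 1 lower gene without RNF6 siRNA replicate 1 or control replicate 1.

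Reported targets of TCF and beta-catenin went both ways. Of 23 tested genes, 5 rose, 9 fell and 9 did not pass (median log2 fold change −0.18), and ASCL2 and OLFM4, markers of intestinal stem cells, had 0 reads in all libraries. The falls included the growth genes MYC and CCND1, as well as GPRC5A, ID2 and DKK1. MYC had 137, 109 and 112 CPM in RNF6 siRNA replicates 1, 2 and 3, against 203, 241 and 219.7 CPM in control replicates 1, 2 and 3, a 1.85-fold fall (adjusted p = 9.41e-05). The libraries of the groups were far apart. CCND1, the gene of cyclin D1, fell 1.81-fold, to 583 ± 27.0 CPM in RNF6 siRNA, against 1059 ± 111 CPM in control libraries (adjusted p = 5.70e-05). GPRC5A fell 2.13-fold, to 319.5 ± 14.9 CPM in RNF6 siRNA, against 680.3 ± 79.5 CPM in control libraries (adjusted p = 1.15e-05). ID2, an inhibitor of bHLH factors, fell 1.89-fold, to 247 ± 14.5 CPM in RNF6 siRNA, against 467 ± 9.25 CPM in control libraries (adjusted p = 1.40e-05). KIAA1199, now called CEMIP, had the largest rise of the list, 2.65-fold, to 32.1 ± 2.79 CPM in RNF6 siRNA, against 12.2 ± 1.72 CPM in control libraries (adjusted p = 1.36e-05). The genes most tied to the pathway as feedback regulators did not share a direction: RNF43 and NOTUM rose, ZNRF3 and DKK1 fell, and AXIN2 and NKD1 did not pass.

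**Figure D4:**
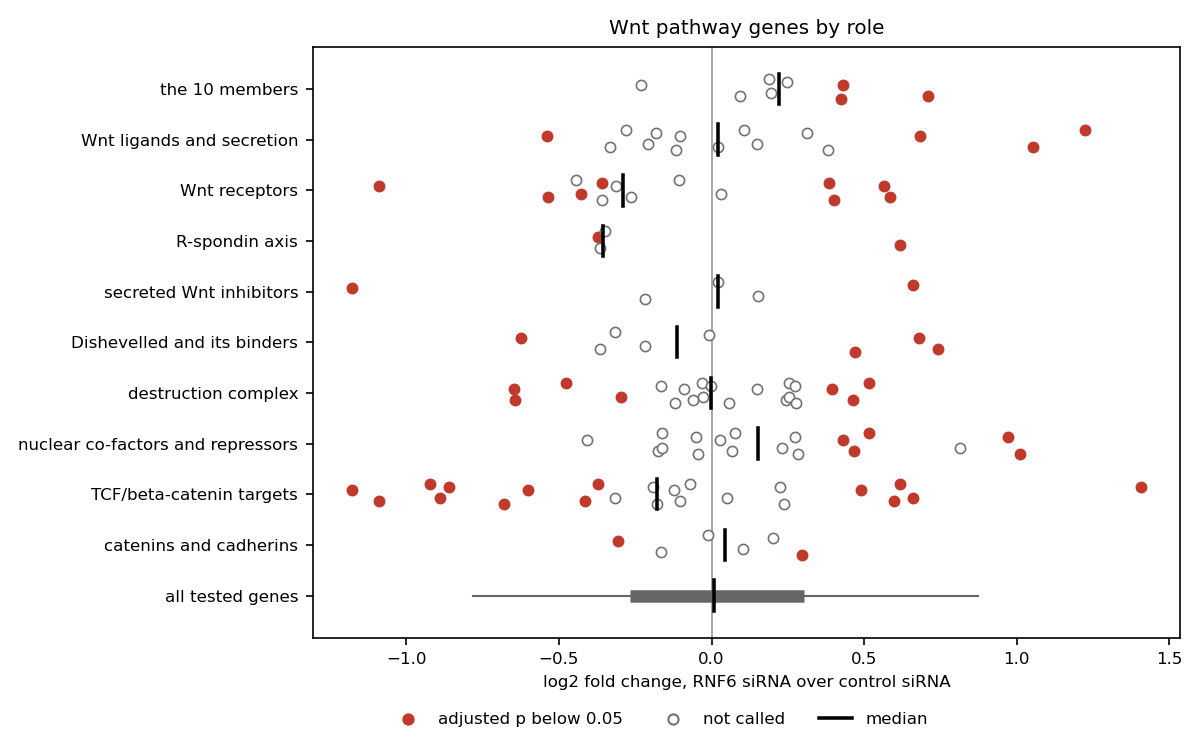
Log2 fold change (RNF6 siRNA over control siRNA) of each tested gene of the 10 members and of the 9 other lists, filled where the adjusted p is below 0.05, with the list's median as a black bar. The bottom row gives all tested genes (thick line, 25th to 75th percentile, thin line, 5th to 95th percentile, −0.78 to 0.87). Called genes lie on both sides of 0 in each list except the members and the nuclear co-factors, where they lie on the right.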

How the data were processed

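Total RNA of HT29 cells was made into 6 libraries with an Illumina TruSeq kit, per the labels' protocols. The authors deposited whole-number read counts per gene symbol, 1 table per library. Per the submitters' processing notes, TopHat2 2.0.11, HTSeq and the build hg19 (GRCh37) were used. For HTSeq, neither version, strand setting nor annotation is given in the sources used here. Reads that HTSeq could not assign to a single gene, the ambiguous row, were 8.27% to 9.11% of a library. They count for no gene, so genes with overlapping exons can lose reads. Without strand, this extends to antisense neighbours. Rows for reads outside genes, ambiguous or multiply aligned held 27.3% to 29.4% of a library and were left out.

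Counts were tested with edgeR 4.0.16 in R 4.3.3: filterByExpr (minimum count 10, minimum total 15), TMM factors of 0.985 to 1.02, a robust quasi-likelihood fit with group as its only term, a two-sided test and Benjamini-Hochberg adjustment over 14685 genes. CPM, fold changes (prior count 0.125), SE and 95% intervals come from this fit. Alternatives were DESeq2 1.42.0, other scalings, no filter, a replicate block and leaving out each library. Exon and coding lengths and overlaps come from GENCODE 29 (GRCh38). The counts rest on GRCh37, so these lengths are approximate and no gene coordinates are printed with the counts.

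The members and lists were chosen with earlier results of these data known. All members, RNF6, TLE3, MYC and CCND1 are named. From each other list up to 4 called genes with the smallest adjusted p are named (6 for targets), or all where 5 or fewer were called. The called genes of the destruction complex list are all named.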

Additional observations from a re-analysis of the deposited data

How the results depend on the processing

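Of the tested members, TCF7L2 kept its call in 11 of 11 alternatives, TCF7 in 8 and AXIN1 in 5. Leaving out one library gave 1 to 3 members higher and 0 to 1 lower, 1514 to 2910 genes higher and 1478 to 2967 lower across the transcriptome, and 13 to 27 genes of the other Wnt lists higher and 11 to 24 lower. For the transcriptome and the other lists, the low ends came from leaving out RNF6 siRNA replicate 3 or control replicate 3, and the high ends from leaving out control replicate 1. The cause was not tested. With one library left out, the log2 fold change of APC lay between −0.023 (without control replicate 2) and 0.18, and that of NKD1 between −0.031 (without RNF6 siRNA replicate 3) and 0.32, and neither was called. The correlations of same-numbered deviations were −0.54, −0.32 and 0.06, and that of RNF6 siRNA replicate 1 with control replicate 2 was 0.55. With 3 libraries per group, these values cannot show whether same-numbered libraries belong together. With the replicate block, 1 member (TCF7L2), 1421 genes and 11 genes of the other lists were higher, and 1321 and 10 were lower. Receptors then had 0 higher and 0 lower genes, PTK7 (adjusted p = 0.0553), FZD6 (0.0584) and NOTUM (0.0516) among the calls lost. The TCF7L2 share of family level in control libraries was 74.5% to 77.7% with one library left out and 72.1% with coding length in place of exon length. In RNF6 siRNA libraries the same values were 73.4% to 75.9% and 72.5%, so by coding length the groups were nearly equal. Scaling by RLE or upper-quartile factors changed no member's call. Receptors had 2 higher and 3 lower genes in DESeq2, and 4 and 7 with no filter on low counts, which also gave 3 lower genes for Dishevelled and 2 for the R-spondin axis. Reads per library limit LEF1 and LGR5, where 3 reads correspond to 0.269 to 0.443 CPM.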

Other observations

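Cadherins and catenins at cell contacts share beta-catenin with the Wnt pathway. Of 6 tested genes, 1 rose and 1 fell (median log2 fold change 0.04), beside 16.6% and 16.1% of all tested genes. The groups did not overlap for 5 of the 6, against 44.2% of all tested genes. CTNND1, the gene of p120 catenin, had 339 ± 20.5 CPM in RNF6 siRNA and 276 ± 16.4 CPM in control libraries, a 1.23-fold rise (adjusted p = 0.0281). VCL, the gene of vinculin, fell 1.24-fold, to 272 ± 10.3 CPM in RNF6 siRNA, against 336 ± 41.0 CPM in control libraries (adjusted p = 0.0375). CTNND1 no longer passed when RNF6 siRNA replicate 2 (adjusted p = 0.0813) or 3 (0.125) or control replicate 2 (0.0812) or 3 (0.133) was left out, or with no filter on low counts (0.0673), and its alternatives lay between 0.0111 and 0.133. VCL no longer passed when RNF6 siRNA replicate 1 (adjusted p = 0.0912), 2 (0.0991) or 3 (0.0786) or control replicate 1 (0.0929) or 3 (0.0835) was left out, and its alternatives lay between 0.0101 and 0.130. CDH1, the gene of E-cadherin, had 115, 114 and 111 CPM in RNF6 siRNA replicates 1, 2 and 3, against 106, 104 and 107 CPM in control replicates 1, 2 and 3, groups that did not overlap but did not pass (adjusted p = 0.426).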
